A study of Mus musculus with 39 samples.

Results

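The livers of wild-type (WT) male mice given corticosterone (Cort) were compared with the livers of untreated WT mice. The 4 libraries labelled WT liver after 3 weeks of Cort and the 5 labelled WT liver untreated, 9 of the 39 samples in the series, were taken by their titles. All 9 mice were adult E47+/+ animals on a C57BL/6 background and on chow. The treated mice received Cort at 100 µg/ml in the drinking water for 3 weeks and, per the labels, were killed after a glucose tolerance test, which the methods of the study describe as an overnight fast followed by an injection of glucose. Outside that test they had free access to food. The untreated mice have no such test in their labels, and a vehicle is given for neither group. Cort exposure, the fast and glucose injection, the experiment and the set of libraries therefore coincide, and their parts in any difference described here cannot be told apart. The time of day of killing is not given in the labels of either group.

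Cort is the natural glucocorticoid of rodents. It enters cells and binds the glucocorticoid receptor (GR, *Nr3c1*), a nuclear receptor that moves to DNA and raises or lowers the transcription of genes for glucose production, amino acid breakdown, lipid handling and inflammation. In the liver, long exposure to glucocorticoids is known for fat accumulation, insulin resistance and muted immune signalling, and 11β-hydroxysteroid dehydrogenase 1 (*Hsd11b1*) renews the active hormone inside hepatocytes.

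Total counts in genes were 40.1 to 54.6 M per Cort library and 30.9 to 38.6 M per untreated library. Pairs of Cort livers correlated at 0.963 to 0.990 (Pearson, log2 CPM, CPM being counts scaled to library size), pairs of untreated livers at 0.958 to 0.985 and pairs across the groups at 0.932 to 0.959. The first principal component held 47.5% of the variance and separated all Cort from all untreated livers. On the second, with 21.6%, Cort replicate 1 and untreated replicates 1 and 2 stood together apart from the others, so the leading counts were also taken without these 3 libraries. In their titles untreated replicates 1 and 2 carry library numbers apart from those of replicates 3 to 5. Small RNA genes took 0.430 and 0.514% of their counts, against 0.0763 to 0.107% in replicates 3 to 5. Whether they form a library set of their own was not tested. The strand columns split evenly in the Cort libraries (50.1% in the larger column) but held 96.9 to 97.5% on 1 strand in the untreated libraries, although both groups carry the same library label. Counts without regard to strand were used in both, and reads of a gene and of an antisense partner cannot be told apart.

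**Figure D1:**
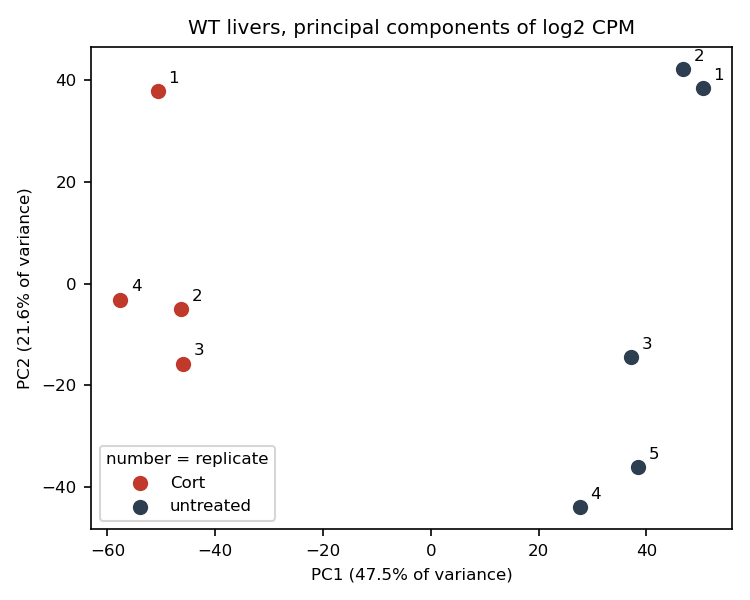
Each point is 1 WT liver, placed by its first (x axis, 47.5% of the variance) and second (y axis, 21.6%) principal component of log2 CPM over all genes tested, with its replicate number beside it. All 4 Cort livers lie at the negative end and all 5 untreated livers at the positive end of the x axis, while Cort replicate 1 and untreated replicates 1 and 2 share the top of the y axis.

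Of 14302 genes tested, 3822 differed between Cort and untreated livers at an adjusted p under 0.05 (edgeR quasi-likelihood test, Benjamini-Hochberg), a background of 26.7%. Higher after Cort were 1949 genes (13.6%) and lower were 1873 (13.1%). A change of at least 2-fold beside the adjusted p was found for 1436 genes (10.0%), 769 of them higher and 667 lower. With the strand column that held more reads in each library the latter were 1979 higher and 669 lower. For 1844 genes (12.9%) every Cort liver lay above every untreated liver and for 1783 (12.5%) below, whatever the p. These shares are the background for the gene lists below, and a count near them says nothing particular about a list. The median log2 fold change over all genes tested was -0.01. Without the 3 libraries that stood apart, 4585 of 14276 genes passed, 2414 higher and 2171 lower. Without Cort replicate 4 alone 2278 of 14453 passed, 1205 higher and 1073 lower. The background thus changes with the libraries left out. List counts given below for such a setting stand against its own totals, not against the shares above. No label says that the mice of a group came from separate litters or cages, so the p-values measure the spread between these livers only.

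**Figure D2:**
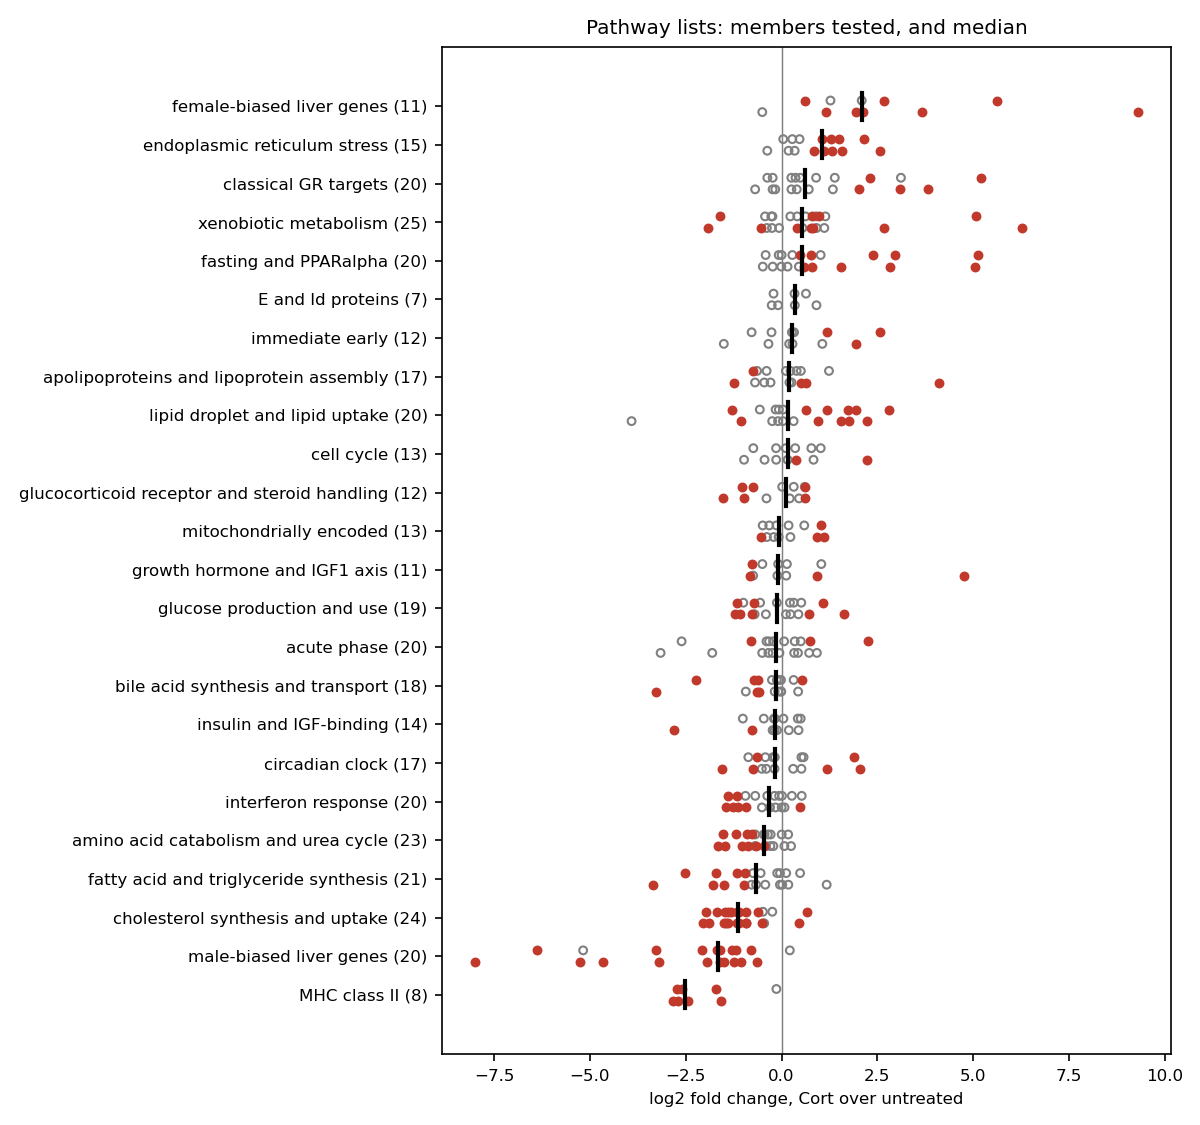
Each point is a gene of 1 of 24 pathway lists, placed on the x axis by its log2 fold change (Cort over untreated), with red filled points for an adjusted p under 0.05, grey open points for the rest and a black bar for the median of the list. The number of members tested stands in parentheses, and the medians run from -2.52 for MHC class II upwards, the median of 2.09 for female-biased liver genes being over the 11 of 20 members that passed the filter, which some could do through the Cort livers alone.

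The receptor itself was measured first. *Nr3c1* was at 72.6, 61.1, 70.3 and 60.7 CPM in the 4 Cort livers and at 62.7, 70.8, 101, 86.9 and 113 CPM in the 5 untreated livers. The groups overlapped, and the log2 fold change of -0.40 ± 0.17 (SE), adjusted p = 0.111, did not pass. It was called lower without untreated replicate 1 (-0.49, adjusted p = 0.0377), with untreated replicates 3 to 5 as the only controls (-0.59, adjusted p = 0.00782) and without the 3 libraries that stood apart (-0.64, adjusted p = 0.00829). *Hsd11b1* was at 695, 743, 759.6 and 977 CPM after Cort against 498, 634, 579.6, 478 and 418 CPM, with every Cort liver higher (0.61 ± 0.16 (SE), adjusted p = 0.0173), although without Cort replicate 4 the call was lost (0.49, adjusted p = 0.0611). Of the 12 genes for the receptor and the handling of steroids, 2 were higher and 4 lower, beside 13.6% and 13.1% over all genes. The other gene higher was the chaperone gene *Hsp90aa1* (0.62). *Srd5a1*, for steroid 5α-reductase 1, was lower (-1.52 ± 0.17 (SE), adjusted p = 3.40e-04), as were the steroid dehydrogenase gene *Akr1c6* (-0.97) and the mineralocorticoid receptor gene *Nr3c2* (-0.73). Without untreated replicate 3, 4 of the 12 were higher. *Serpina6*, for the Cort-binding globulin of plasma, was at 199, 184, 87.3 and 148 CPM after Cort and at 359, 437, 352, 167 and 259 CPM without (-1.02 ± 0.30 (SE), adjusted p = 0.0293), and its call was lost without Cort replicate 3 or 4 or untreated replicate 1, 2 or 3 (-0.83 to -0.98 with untreated replicate 1 to 3 or Cort replicate 3 left out, and -1.002 without Cort replicate 4, adjusted p = 0.056 to 0.0774).

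Of 20 genes commonly used as GR targets, 5 were higher after Cort and none was lower, beside 13.6% and 13.1% over all genes. Their median log2 fold change was 0.60. *Fkbp5*, a chaperone of the receptor that dampens its signal, was at 61.5, 284, 504 and 270.3 CPM in the Cort livers and at 41.3, 18.4, 64.4, 52.6 and 106 CPM in the untreated livers. Cort replicate 1 lay within the untreated range and the other 3 Cort livers above it (2.30 ± 0.56 (SE), adjusted p = 0.0139). *Cdkn1a*, which encodes the cell cycle inhibitor p21, was at 21.8, 39.7, 81.1 and 53.0 CPM after Cort and at 1.59, 0.663, 1.53, 1.65 and 1.16 CPM without, so that the groups were far apart (5.20 ± 0.39 (SE), adjusted p = 4.20e-05). *Gadd45b*, a stress gene of the growth arrest and DNA damage family, was at 8.77, 3.29, 6.33 and 5.49 CPM against 0.672, 0.418, 0.290, 0.200 and 0.554 CPM, again with no overlap (3.82). The metallothionein *Mt1*, which binds zinc and copper, was at 531, 232, 139 and 301 CPM against 10.8, 8.82, 7.18, 38.2 and 113 CPM. Its groups did not overlap (3.08 ± 0.81 (SE), adjusted p = 0.0191), but untreated replicate 5 was the highest of its group, the log2 fold change was 4.21 without it, and the call was lost without the 3 libraries that stood apart (2.09, adjusted p = 0.0851).

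The fifth was *Mfsd2a*, for a lysophospholipid transporter (2.01 ± 0.52 (SE), adjusted p = 0.0182). The other members commonly used as GR targets did not pass, among them the leucine zipper gene *Tsc22d3* (55.7 to 206 CPM after Cort, 55.4 to 222 CPM without, adjusted p = 0.44), the clock gene *Per1* (adjusted p = 0.477, but 0.71 and adjusted p = 0.0421 without Cort replicate 1) and the tyrosine-degrading *Tat* (adjusted p = 0.134). In these 3 genes the lowest Cort liver was replicate 1. Without the 3 libraries that stood apart, 9 of the 20 were higher and none was lower. Over all 14276 genes of that setting 2414 were higher and 2171 lower. The consensus sequence of the GR element, AGAACA and TGTTCT with 3 bases between them, occurred in 3 of 32851 promoters of 300 bases (250 before to 50 after each start, RefSeq, GRCm38.p6), 1 of them that of *Sgk1*, which was not called (0.36, adjusted p = 0.159). The other tested gene with it was *Acnat2*, which was higher (3.41, adjusted p = 0.00431).

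Genes of glucose production and use had no common direction. Of 19 genes of glucose production and use, 3 were higher and 5 lower, beside 13.6% and 13.1% over all genes. *G6pc*, for the enzyme that releases glucose from its phosphate, was at 92.1, 161, 214 and 162 CPM after Cort and at 431, 403, 449, 217 and 327 CPM without, each Cort liver lying below every untreated liver (-1.22 ± 0.27 (SE), adjusted p = 0.00856). In the fit of all 19 livers of both genotypes its value was -1.20 and the call was lost (adjusted p = 0.0546). *Pck1*, for phosphoenolpyruvate carboxykinase, was at 1275, 3275, 2985 and 2824 CPM against 4199, 3896, 2803, 2878 and 3427 CPM and was not called (-0.41 ± 0.26 (SE), adjusted p = 0.262). Among the genes higher were *Pcx*, for pyruvate carboxylase, at 1046, 819.7, 899.6 and 916 CPM against 586, 531, 588, 548 and 562 CPM with no overlap (0.71 ± 0.11 (SE), adjusted p = 0.00192), and the gene of the glycogen targeting subunit *Ppp1r3c* (1.08). The glycogen synthase gene *Gys2* (-1.09), the glycogen phosphorylase gene *Pygl* (-0.77) and the glucose transporter gene *Slc2a2* (-0.72) were lower. Of the 19, 6 were higher and 5 lower without the 3 libraries that stood apart.

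Of 14 genes of insulin signalling and of the binding proteins for insulin-like growth factors, 2 were lower and none was higher. The share lower was near the 13.1% called lower over all genes. *Igfbp2* was at 26.2, 56.8, 55.4 and 27.4 CPM after Cort and at 346, 606, 233, 121 and 140.0 CPM without (-2.80 ± 0.50 (SE), adjusted p = 0.00378). The groups did not overlap, and the log2 fold change was -1.81 without the 3 libraries that stood apart. The forkhead factor gene *Foxo3* fell by 0.76 on the log2 scale. *Irs2* and *Igfbp1*, which insulin lowers in liver, overlapped between the groups (adjusted p = 0.765 and 0.966).

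Of 21 genes of fatty acid and triglyceride synthesis, 8 were lower and none was higher (median log2 fold change -0.67). *Srebf1*, which encodes the transcription factor that drives this programme, was at 113, 80.2, 140.5 and 71.9 CPM in the Cort livers and at 370.1, 409, 564, 192 and 210.3 CPM in the untreated livers, with no overlap (-1.78 ± 0.34 (SE), adjusted p = 0.00486). *Thrsp*, a lipogenic gene named for its response to thyroid hormone, was at 60.8, 69.9, 159.7 and 75.8 CPM against 1552, 973, 1310, 399.7 and 413 CPM (-3.34 ± 0.50 (SE), adjusted p = 0.00153). The elongase *Elovl6* was at 37.8, 29.8, 34.1 and 29.2 CPM against 199, 170.4, 365, 142 and 55.5 CPM (-2.51), and for both genes each Cort liver was the lower. Fatty acid synthase, *Fasn*, was at 180.5, 225, 292 and 239.9 CPM against 852, 1000, 1471, 341 and 171 CPM, so that untreated replicate 5 lay below all 4 Cort livers and the other untreated livers above them (-1.71 ± 0.52 (SE), adjusted p = 0.0336). The *Fasn* call was lost without any 1 of the Cort livers or without untreated replicate 1, 2 or 3 (-1.83 to -1.34, adjusted p = 0.057 to 0.0812). The desaturase gene *Scd1* (-0.12, adjusted p = 0.869) and both diacylglycerol acyltransferase genes, *Dgat1* (-0.04) and *Dgat2* (0.02), were not called.

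Most genes of cholesterol synthesis and uptake were lower. Of 24 genes, 19 were lower and 2 higher, and in 17 each Cort liver lay below every untreated liver (median log2 fold change -1.13). *Dhcr7*, for the enzyme of the last step to cholesterol in 1 branch, was at 28.1, 27.7, 33.6 and 25.7 CPM after Cort and at 173, 125, 93.4, 102 and 107 CPM without (-2.06 ± 0.19 (SE), adjusted p = 1.18e-04). *Nsdhl*, for a sterol dehydrogenase, was at 41.1, 29.5, 32.2 and 27.4 CPM against 196, 151, 104, 80.1 and 114 CPM (-1.98). *Msmo1*, for a sterol methyl oxidase, was at 94.9, 71.3, 113 and 50.2 CPM against 495, 358, 212, 265 and 199 CPM (-1.89). None of these 3 genes had an overlap between the groups. Higher after Cort was *Srebf2*, for the transcription factor of the pathway, at 60.6, 73.8, 101 and 76.5 CPM against 54.3, 49.9, 40.3, 59.2 and 44.1 CPM (0.65 ± 0.16 (SE), adjusted p = 0.014). The count was 16 lower and 1 higher of 24 without the 3 libraries that stood apart.

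The sterol response element as TCACNCCAC, on either strand, was found in the promoter of 1 of the 16 cholesterol genes that the promoter table holds, *Hmgcs1*, and in 1.51% of the promoters of all tested genes. *Hmgcs1* itself was not called (-0.45, adjusted p = 0.324). The absence of these letters from a window of 300 bases says nothing about the factor.

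**Figure D3:**
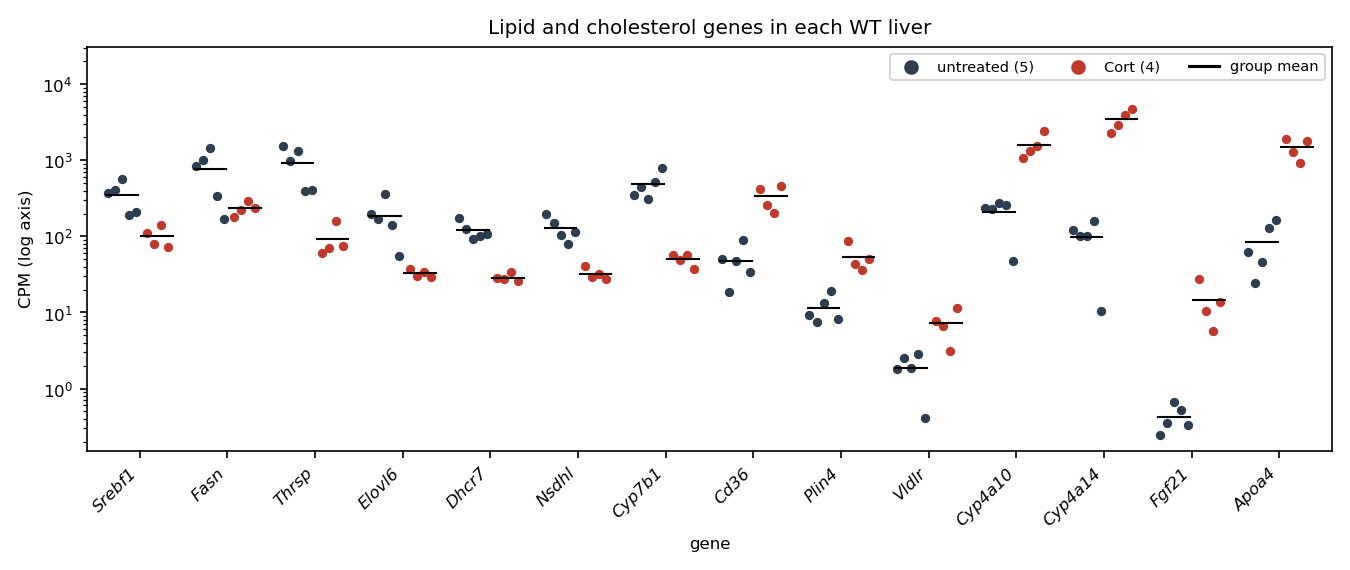
CPM (y axis, log scale) of 14 lipid and cholesterol genes in each WT liver, dark points for the 5 untreated and red points for the 4 Cort livers, with a black line at each group mean. *Dhcr7* and *Nsdhl* lie lower in every Cort liver and *Cd36*, *Plin4*, *Cyp4a14*, *Fgf21* and *Apoa4* higher, while for *Fasn* the lowest untreated liver at 171 CPM lies under the Cort livers.

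Of 20 genes for lipid droplets and lipid uptake, 9 were higher, 2 lower and 9 not called (median log2 fold change 0.18). The fatty acid transporter *Cd36* was at 421, 261, 204 and 464 CPM in the Cort livers and at 50.5, 18.6, 47.7, 88.7 and 34.3 CPM in the untreated livers (2.81 ± 0.41 (SE), adjusted p = 0.0013). The droplet coat gene *Plin4* was at 86.1, 43.6, 35.7 and 50.1 CPM against 9.37, 7.53, 13.4, 19.2 and 8.31 CPM (2.22 ± 0.32 (SE), adjusted p = 0.0013). Each Cort liver was higher than every untreated liver for both genes. *Plin5* (1.73), *G0s2*, which inhibits the main triglyceride lipase (1.76), and *Hilpda* (1.19) rose too, and *Vldlr*, for the receptor of very low-density lipoprotein, rose by 1.94 (1.63 and not called without Cort replicate 4, adjusted p = 0.0501). *Plin2*, the main droplet coat gene of hepatocytes, overlapped between the groups (0.31, adjusted p = 0.51). The binding protein gene *Fabp1* fell by 1.31 on the log2 scale.

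Fatty acid oxidation and fasting genes under PPARα, the nuclear receptor for fatty acids, were higher in 10 of 20 cases and lower in none. The ω-hydroxylase gene *Cyp4a14* was at 2262, 2884, 3982 and 4720 CPM after Cort and at 121, 103, 101, 161 and 10.4 CPM without (5.12 ± 0.63 (SE), adjusted p = 5.38e-04). *Cyp4a10* was at 1085, 1341, 1567 and 2461 CPM against 237, 229, 271, 262 and 47.3 CPM (2.95). In both genes untreated replicate 5 was the lowest of all 9 livers. The *Cyp4a* genes are a family of close copies, so counts of 1 member are uncertain. *Fgf21*, a hormone that the liver releases in fasting, was at 27.7, 10.4, 5.71 and 13.7 CPM against 0.248, 0.349, 0.660, 0.525 and 0.333 CPM, with no overlap (5.05 ± 0.47 (SE), adjusted p = 1.31e-04). The transport gene *Cpt1a* (-0.23, adjusted p = 0.344) and *Ppara* itself (-0.08, adjusted p = 0.859) were not called. Without the 3 libraries that stood apart, 10 were higher and 2 lower. The treated mice had fasted overnight, as described above, and the untreated mice have no fast in their labels, so fasting and Cort cannot be told apart here.

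Among 17 genes of lipoproteins and their assembly, 3 were higher and 2 lower, beside 13.6% and 13.1% over all genes. *Apoa4*, an apolipoprotein of triglyceride-rich particles, was at 1890, 1284, 927 and 1808 CPM in the Cort livers and at 62.0, 24.8, 45.5, 131 and 163 CPM in the untreated livers (4.12 ± 0.52 (SE), adjusted p = 6.52e-04). The groups were far apart, and the log2 fold change was 5.08 with untreated replicates 1 and 2 as the only controls. Without Cort replicate 2 or 4 or untreated replicate 4, 1 of the 17 genes was higher in place of 3. *Apoa1*, the main protein of high-density lipoprotein, fell by 1.25, and *Apom* fell by 0.74 on the log2 scale. *Apob* (0.39, adjusted p = 0.116) and *Mttp*, which loads lipid onto it (0.20, adjusted p = 0.28), were not called.

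Of 18 genes of bile acid synthesis and transport, 6 were lower and 1 higher, beside 13.1% lower and 13.6% higher over all genes. *Cyp7b1*, for the oxysterol hydroxylase of the acidic pathway, was at 57.7, 48.7, 57.2 and 37.9 CPM after Cort and at 348, 453, 309.7, 523 and 795 CPM without (-3.27 ± 0.29 (SE), adjusted p = 1.14e-04). The uptake transporter *Slco1a1* was at 65.3, 195, 152 and 80.8 CPM against 479, 481, 802, 605 and 558 CPM (-2.25), and both genes showed no overlap. Both are also known to be higher in male than in female mouse liver. *Cyp7a1*, the rate-limiting enzyme of bile acid synthesis, was at 123, 53.6, 204 and 88.0 CPM against 209, 76.7, 263, 360.3 and 209 CPM and was not called (-0.93 ± 0.44 (SE), adjusted p = 0.14). Without untreated replicate 2 it was called lower (-1.15, adjusted p = 0.0447). Leaving out the libraries that stood apart gave 2 lower and 1 higher of the 18, beside 2171 lower and 2414 higher of 14276 genes. Without Cort replicate 1 alone 2 of the 18 were lower.

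Most of the largest decreases were in genes that male livers express more than female livers. This difference between the sexes is set by the rhythm of growth hormone, which acts on the liver through its receptor (*Ghr*) and STAT5, and major urinary proteins (MUPs) are its best-known male products. All 9 mice were male. Of 20 male-biased genes, 18 were lower after Cort and none was higher, 16 of them by at least 2-fold against a background of 4.66% in that direction (median log2 fold change -1.66). *Hsd3b5*, a male-specific steroid dehydrogenase, was at 0.465, 2.27, 1.56 and 0.269 CPM in the Cort livers and at 301, 334, 251, 293 and 299 CPM in the untreated livers (-7.99 ± 0.58 (SE), adjusted p = 3.59e-05). *Selenbp2* was at 21.6, 36.8, 94.1 and 7.01 CPM against 1232, 1446, 987, 1498 and 2423 CPM (-5.25 ± 0.71 (SE), adjusted p = 8.93e-04, and -6.12 without Cort replicate 3). In neither gene did the groups come near each other. *Serpina1e*, a member of the α1-antitrypsin family, was at 150.2, 438, 816 and 19.2 CPM against 7878, 8662, 6186, 6749 and 15671 CPM (-4.67, and -5.48 without Cort replicate 3). The ω-hydroxylase *Cyp4a12a* fell by 1.51 on the log2 scale. *Moxd1* (-5.18, adjusted p = 0.0605) and *Mup20* (0.21, adjusted p = 0.68) did not pass.

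Of the 10 largest decreases among genes at 10 CPM or more on average, 8 were *Mup* genes, from *Mup15* (-8.75) to *Mup12* (-6.31). *Mup7* was at 16.3, 23.8, 20.1 and 26.2 CPM after Cort and at 2988, 1826, 1945, 2323 and 3625 CPM without (-6.88 ± 0.31 (SE), adjusted p = 1.15e-06). *Mup11* was at 2.35, 2.77, 2.003 and 2.12 CPM against 513, 578, 625, 857.8 and 2148 CPM (-8.67). In *Mup15*, *Mup9*, *Mup17* and *Mup18* untreated replicates 4 and 5 were the highest of all livers. Without untreated replicate 5 the log2 fold change was -7.71 in place of -8.75 for *Mup15*, -7.18 in place of -7.92 for *Mup9*, -6.75 in place of -7.42 for *Mup17* and -5.62 in place of -6.57 for *Mup18*, and for *Mup17* it was -8.13 without Cort replicate 1. The *Mup* genes are near-identical copies and reads that match several are not counted, so levels of single members are uncertain. The other 2 were *Hsd3b5* and *Mir6236*, annotated as a microRNA gene, at 4.00, 4.33, 4.69 and 4.08 CPM against 590.2, 574, 301, 329 and 320.4 CPM (-6.63 ± 0.30 (SE), adjusted p = 1.15e-06). All genes of small RNA types together took 0.0154 to 0.0215% of counts in the Cort libraries and 0.0763 to 0.514% in the untreated libraries, and the part of this in the *Mir6236* value was not tested.

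Of 20 genes higher in female than in male livers, 11 passed the filter on low counts, of which 8 were higher after Cort and none was lower. A member could pass through the Cort livers alone, so the share among those tested is no support. *Cyp2c40* was at 20.2, 43.0, 9.96 and 86.2 CPM against 6.12, 8.65, 4.17, 5.85 and 6.32 CPM (2.68, and 1.97 without Cort replicate 4). *Cyp2b9* was at 39.5, 8.73, 0.243 and 133 CPM against 0.141, 0.593, 0.158, 3.50 and 0.0277 CPM, with Cort replicate 3 inside the untreated range (5.61 ± 1.45 (SE), adjusted p = 0.018), and without Cort replicate 4 it was not called (4.14, adjusted p = 0.0656), while it was 7.68 without untreated replicate 4. The 9 members below the filter included *Sult2a1*, *Sult3a1*, *A1bg*, *Cyp3a16* and *Cyp3a44*.

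**Figure D4:**
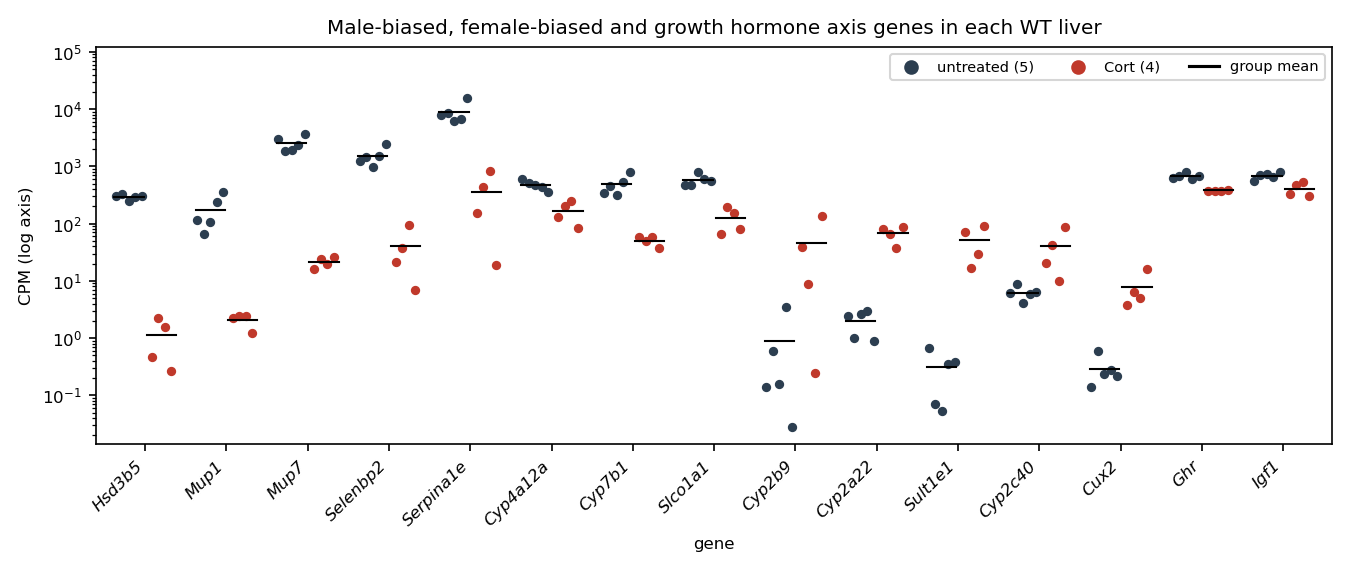
CPM (y axis, log scale) of 15 male-biased, female-biased and growth hormone axis genes in each WT liver, dark points for the 5 untreated and red points for the 4 Cort livers, with a black line at each group mean. From *Hsd3b5* to *Slco1a1* every Cort liver lies below every untreated liver, and from *Cyp2a22* to *Cux2* above it, while for *Cyp2b9* the groups overlap.

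In the growth hormone axis itself, 2 of 11 genes were higher and 2 lower, beside 13.6% and 13.1% over all genes. *Ghr* was at 373, 374, 377 and 391 CPM after Cort and at 618, 685, 781, 607 and 691 CPM without (-0.84 ± 0.11 (SE), adjusted p = 9.36e-04). *Igf1*, the main hormone made under growth hormone, was at 331, 463, 528 and 298 CPM against 560.3, 710.4, 746, 650.1 and 788 CPM (-0.77 ± 0.19 (SE), adjusted p = 0.0136). Both genes were lower in each Cort liver. *Cux2*, a repressor of male-biased genes that is normally found in female liver, was at 3.82, 6.47, 5.10 and 16.3 CPM against 0.141, 0.593, 0.238, 0.275 and 0.222 CPM (4.76 ± 0.51 (SE), adjusted p = 2.78e-04, and 4.13 without Cort replicate 4). *Stat5a* rose by 0.91, while *Stat5b*, the form that carries the male signal (0.14, adjusted p = 0.416), and *Socs2*, a feedback target (-0.50, adjusted p = 0.468), were not called.

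Enzymes of drug and steroid metabolism held several of the largest increases. Of 25 xenobiotic genes, 8 were higher and 3 lower, beside 13.6% and 13.1% over all genes. *Cyp2b10*, the typical target of the receptor CAR, was at 41.5, 40.3, 145 and 53.0 CPM in the Cort livers and at 3.04, 0.453, 0.396, 0.725 and 0.0831 CPM in the untreated livers (6.28 ± 0.77 (SE), adjusted p = 5.38e-04). *Cyp2a22* was at 80.0, 64.7, 37.6 and 87.5 CPM against 2.44, 1.01, 2.61, 2.98 and 0.887 CPM (5.07 ± 0.39 (SE), adjusted p = 4.58e-05). The groups did not overlap in either gene, and untreated replicate 1 was the highest untreated liver for *Cyp2b10* (7.38 without it, and 5.63 without Cort replicate 3). Without Cort replicate 4, 5 of the 25 genes were higher, beside 1205 of all 14453 genes in that setting. *Nr1i3*, for CAR, rose by 0.76. *Cyp3a11*, the typical target of the receptor PXR, was not called (0.62, adjusted p = 0.111), and *Cyp1a2* fell by 1.60 on the log2 scale. Outside the list, *Sult1e1*, for oestrogen sulphotransferase, was at 70.9, 16.9, 29.3 and 91.9 CPM against 0.672, 0.0697, 0.0528, 0.350 and 0.388 CPM (7.42 ± 0.67 (SE), adjusted p = 1.18e-04). *Cyp17a1*, for a hydroxylase of steroid synthesis, was at 55.9, 90.1, 201 and 168 CPM against 12.2, 5.44, 7.74, 27.1 and 19.3 CPM (3.16). *Acnat2*, for a transferase that joins fatty acids to amino acids, was at 148, 191, 219.8 and 171 CPM against 6.40, 3.66, 7.08, 29.6 and 39.1 CPM (3.41). All 3 were higher in each Cort liver.

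Genes of amino acid breakdown and the urea cycle were lower in 10 of 23 cases and higher in none (median log2 fold change -0.46). *Got1*, for aspartate aminotransferase, was at 90.5, 76.6, 106 and 76.1 CPM after Cort and at 455, 264, 222, 187 and 254 CPM without (-1.66 ± 0.25 (SE), adjusted p = 0.00151). The arginine transporter *Slc7a2* was at 223, 251, 334 and 230.1 CPM against 948, 725, 730.0, 564 and 766 CPM (-1.53). Neither gene had an overlap. The urea cycle genes *Ass1* (-1.18) and *Otc* (-1.05) were lower, whereas *Cps1* (-0.70, adjusted p = 0.0977) and *Arg1* (-0.69, adjusted p = 0.131) did not pass. *Tdo2*, for tryptophan dioxygenase, was not called (0.07, adjusted p = 0.798).

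Several chaperone and stress genes of the endoplasmic reticulum (ER) were higher after Cort, while others were not called. When unfolded proteins gather in the ER, the sensors ATF6, IRE1 and PERK raise chaperone genes, many of them through an ER stress element in the promoter, and CHOP (*Ddit3*) marks prolonged stress. Of 15 genes of this response, 9 were higher and none was lower, 8 of them by at least 2-fold against a background of 5.38% in that direction (median log2 fold change 1.05). *Hspa5*, for the chaperone BiP, was at 1441, 2487, 1159 and 1610 CPM in the Cort livers and at 796, 731, 574, 588 and 653 CPM in the untreated livers (1.32 ± 0.21 (SE), adjusted p = 0.00208). *Creld2* was at 110.2, 254, 83.0 and 139 CPM against 27.0, 23.6, 19.4, 26.0 and 29.0 CPM (2.55 ± 0.28 (SE), adjusted p = 3.27e-04). *Ddit3* was at 41.1, 26.7, 11.4 and 20.6 CPM against 7.39, 5.79, 5.78, 5.28 and 4.07 CPM (2.14). The groups did not overlap in these 3 genes, nor in 5 others of the list. *Hsp90b1* (0.47), *Calr* (0.28), *Dnajc3* (0.34), *Pdia6* (0.04), *Atf6* (0.18) and *Xbp1* (-0.37) were not called. Without the 3 libraries that stood apart the counts were again 9 higher and none lower.

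The ER stress element, searched as CCAAT, then 9 bases of any kind, then CCACG, on both strands, was held by 39 of 32851 promoter windows (0.119%) and by 6 of the 12 list members in the promoter table. Over all tested genes 19 held it, of which 6 (31.6%) were higher after Cort and none was lower, beside the 13.6% called higher among all genes. Within the list 2 of 6 members with the element and 5 of 6 members without it were higher. A match describes the letters only and is no evidence that a factor binds. The windows of 5 called genes with the element are shown first and of 3 uncalled members after them, 5′ to 3′ in the direction of the gene (RefSeq, GRCm38.p6), with the element in capitals.
Hspa5, chr2:34772010-34772058, + strand: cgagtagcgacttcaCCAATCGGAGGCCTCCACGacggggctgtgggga
Creld2, chr15:88819505-88819553, + strand: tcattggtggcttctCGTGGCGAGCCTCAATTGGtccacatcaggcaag
Syvn1, chr19:6046517-6046565, + strand: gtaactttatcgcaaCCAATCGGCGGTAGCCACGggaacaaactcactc
Derl3, chr10:75893227-75893275, + strand: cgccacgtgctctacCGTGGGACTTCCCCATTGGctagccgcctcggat
Acnat2, chr4:49408202-49408250, - strand: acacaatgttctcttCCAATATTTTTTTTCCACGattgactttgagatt
Calr, chr8:84847060-84847108, - strand: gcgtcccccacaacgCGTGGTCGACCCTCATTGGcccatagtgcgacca
Dnajc3, chr14:118937812-118937860, + strand: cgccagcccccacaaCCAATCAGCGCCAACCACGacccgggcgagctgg
Pdia6, chr12:17266476-17266524, + strand: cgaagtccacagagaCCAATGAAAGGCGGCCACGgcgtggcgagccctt
The element starts 65 bases before the start of *Hspa5* and 44 bases before that of *Syvn1*, an ER ubiquitin ligase gene with a log2 fold change of 2.12. In *Creld2*, *Derl3* (2.75) and *Calr* the letters lie on the opposite strand. The neighbour *Alg12*, a glycosylation gene read the other way from the same window as *Creld2*, was the sixth called gene (1.28).

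**Figure D5:**
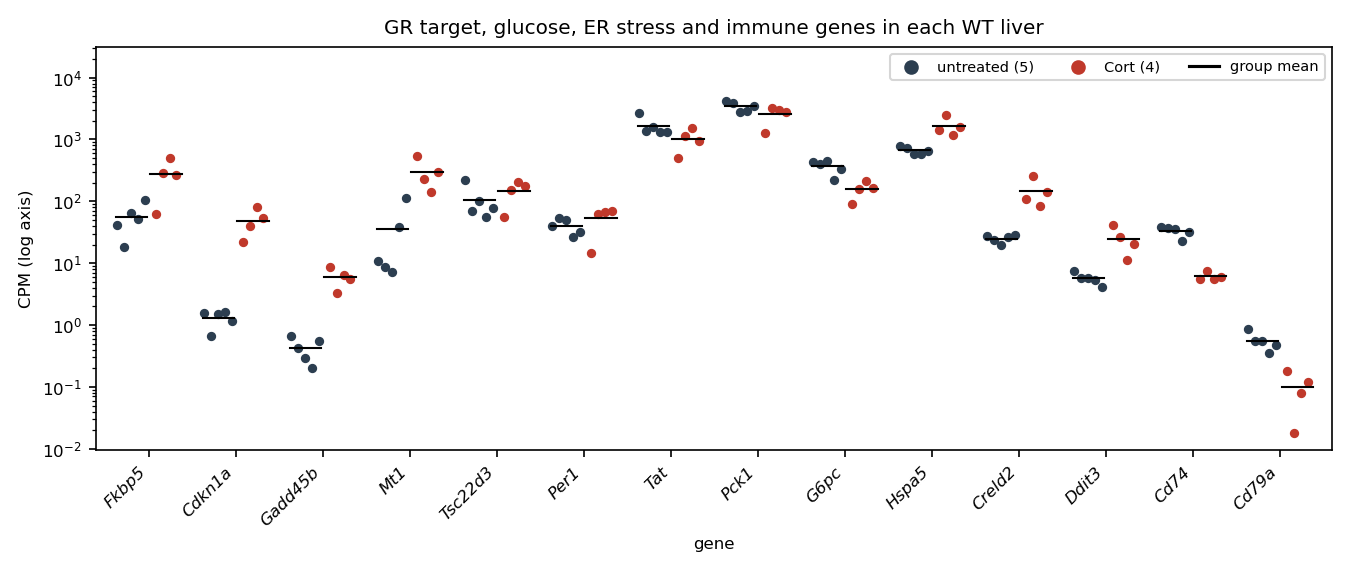
CPM (y axis, log scale) of 14 GR target, glucose, ER stress and immune genes in each WT liver, dark points for the 5 untreated and red points for the 4 Cort livers, with a black line at each group mean. *Cdkn1a*, *Gadd45b*, *Mt1*, *Hspa5*, *Creld2* and *Ddit3* lie higher and *G6pc*, *Cd74* and *Cd79a* lower in every Cort liver, while *Fkbp5*, *Tsc22d3*, *Per1*, *Tat* and *Pck1* overlap.

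MHC class II molecules are made by B cells, macrophages and dendritic cells rather than by hepatocytes. Of 8 MHC class II genes, 7 were lower and none was higher, each by at least 2-fold and with no overlap (median log2 fold change -2.52). *H2-DMb2*, among the 7, was at 0.1 CPM or less in each Cort liver and could have passed the filter through the untreated livers alone. Without the 3 libraries that stood apart, 7 genes were tested and 6 were lower. *Cd74*, for the invariant chain, was at 5.64, 7.37, 5.65 and 5.98 CPM in the Cort livers and at 38.3, 37.3, 36.3, 22.7 and 31.8 CPM in the untreated livers (-2.43 ± 0.17 (SE), adjusted p = 3.47e-05). *H2-Ab1* was at 2.16, 2.75, 1.74 and 2.17 CPM against 19.2, 22.8, 12.2, 8.26 and 9.28 CPM (-2.69 ± 0.33 (SE), adjusted p = 5.08e-04). *Ciita*, the regulator of this gene group, was not called (-0.14, adjusted p = 0.765). In whole liver, fewer cells of a type and less RNA in each cell cannot be told apart.

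Markers of immune cells were checked beside these genes. Of 14 B cell markers 8 passed the filter, 7 of them lower, and the summed level of the list was 2.12 to 4.79 CPM after Cort and 11.6 to 40.4 CPM without. Of 14 T and NK cell markers 6 passed, 3 of them lower, with sums of 3.20 to 7.91 CPM and 7.93 to 15.8 CPM. A member of either list could pass the filter through the untreated livers alone, so the share among those tested is no support. Of 13 Kupffer cell and macrophage markers 8 were lower and none was higher, with sums of 144 to 188 CPM and 183 to 501 CPM. *Clec4f*, specific to Kupffer cells, was at 11.1, 18.5, 25.2 and 33.7 CPM after Cort and at 74.9, 49.9, 56.0, 36.0 and 83.2 CPM without (-1.44 ± 0.32 (SE), adjusted p = 0.00991), while the macrophage marker *Adgre1* did not pass (-0.86, adjusted p = 0.0862). Without Cort replicate 2, 4 of the 13 were lower. Their part in the MHC class II result was not tested. Of 10 markers of sinusoidal endothelium 5 were lower and 1, *Lyve1*, was higher (1.58), and the 5 became 3 when any 1 of the Cort livers or untreated replicate 1, 3 or 5 was left out.

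Other cell types were checked in the same way. Of 11 hepatocyte markers found, 1 was lower and 2 were higher, and together they took 104000 to 147000 CPM after Cort and 68200 to 103000 CPM without. Of 12 stellate cell and collagen markers 1 was higher and 1 lower, of 7 cholangiocyte markers tested 1 was higher and of 6 erythroid markers tested 1 was lower, with 3 higher when Cort replicate 4 was left out. Of 4 adipocyte markers tested 1 was higher and 1, *Cfd*, lower. Only 2 of 10 acinar pancreas markers passed the filter, *Cela1* and *Cela2a*, both lower, which could have passed through the untreated livers alone, and 5 were at 0 in all 9 livers. The 10 skeletal muscle markers summed to 0.809 to 225 CPM after Cort and to 1.45 CPM or more without, with the highest sum in an untreated liver, so that single livers of both groups held muscle transcripts, and none of the 9 tested was called (2 were higher without the 3 libraries that stood apart).

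Interferon response genes were lower in 6 of 20 cases and higher in 1. *Irf7*, for a factor that amplifies the response, was at 20.6, 20.4, 10.8 and 8.62 CPM against 44.8, 39.7, 28.6, 29.4 and 56.0 CPM (-1.39 ± 0.30 (SE), adjusted p = 0.00817), with no overlap. *Ifi44* fell by 1.46 and *Psmb8* by 1.13 on the log2 scale.

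Acute phase genes hardly separated the groups, with 2 of 20 higher and 1 lower, beside 13.6% and 13.1% over all genes. Serum amyloid *Saa1* was at 245, 118, 27.9 and 44.9 CPM after Cort and at 53.4, 36.8, 22.5, 533 and 2676 CPM without. Untreated replicates 4 and 5 stood far above all other livers, and the log2 fold change of -2.61 ± 1.37 (SE), adjusted p = 0.181, was not called and turned to 1.26 with untreated replicates 1 and 2 as the only controls. *Saa2* had the same 2 high livers. *Orm3*, an orosomucoid gene of a family of close copies, rose by 2.26, and complement *C3* rose by 0.75, a call that was lost without Cort replicate 1 (0.71, adjusted p = 0.0515). The iron hormone gene *Hamp* fell by 0.80 on the log2 scale, which was not called without Cort replicate 4 (-0.72, adjusted p = 0.0606). Without untreated replicate 5, 6 of the 20 were higher.

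Clock genes follow the time of killing, which the labels do not give. Of 17 such genes, 3 were higher and 3 lower, beside 13.6% and 13.1% over all genes. *Arntl*, for BMAL1, was at 5.58, 4.35, 12.3 and 5.23 CPM after Cort and at 0.707, 0.663, 1.35, 1.60 and 4.82 CPM without (1.90 ± 0.56 (SE), adjusted p = 0.0299). Untreated replicate 5 lay within the Cort range, and the call was lost without Cort replicate 3 or 4 or untreated replicate 1, 2, 3 or 4 (1.46 to 2.01, adjusted p = 0.0503 to 0.0921), while the log2 fold change was 2.65 without untreated replicate 5. *Npas2* (2.04) and *Nfil3* (1.19) were higher in each Cort liver. *Npas2* was at only 0.263 to 0.488 CPM after Cort and at about 0.11 CPM at most without. It could have passed the filter through the Cort livers alone. *Dbp*, an output gene of the clock, was at 25.5, 22.3, 9.17 and 22.9 CPM against 83.3, 114, 39.5, 35.5 and 24.3 CPM (-1.57 ± 0.46 (SE), adjusted p = 0.0306), and the call was lost without Cort replicate 2, 3 or 4 or untreated replicate 1 or 2 (-1.64 to -1.19, adjusted p = 0.0572 to 0.0694). *Per3* fell by 0.75 and *Nr1d2* fell by 0.63 on the log2 scale, with *Per3* not called without Cort replicate 3 (-0.71, adjusted p = 0.0509) or 4 (-0.72, adjusted p = 0.0587). Without either of these livers 1 of the 17 was lower.

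The smaller lists gave fewer calls, to be read beside the 13.6% called higher and the 13.1% called lower over all genes. Of 12 immediate early genes tested, 3 were higher, *Atf3* (2.56), *Fos* (1.94) and *Jun* (1.19), and none was lower. Without Cort replicate 1 or untreated replicate 1, 4 or 5 none of the 12 was higher, and without untreated replicate 2, 1 was. Of 13 cell cycle genes 2 were higher, *Ccnb1* (2.23) and *Cdkn1b* (0.37, a call lost without any 1 liver other than untreated replicate 5, 0.29 to 0.40), and without the 3 libraries that stood apart none was higher and 3 were lower. Among the 7 genes for E proteins and their Id inhibitors, *Tcf3*, which encodes E47, was at 17.8, 15.02, 15.97 and 17.7 CPM after Cort and at 13.3, 17.4, 11.1, 12.2 and 11.4 CPM without (0.34 ± 0.14 (SE), adjusted p = 0.1), and none of the 7 was called. Without untreated replicate 2 *Tcf3* was called higher (0.47, adjusted p = 0.0156). Leaving out the 3 libraries that stood apart gave 1 higher and 3 lower. Of the 13 genes encoded by mitochondria, 3 were higher and 1 lower. The gene lower was *mt-Co1*, at 16008, 20302, 18828 and 17684 CPM against 24765, 30689, 28928, 24768 and 22266 CPM (-0.53 ± 0.16 (SE), adjusted p = 0.0309). Its groups did not overlap, but the call was kept under only 9 of 18 alternatives. Among the genes higher was *mt-Co3*, at 10.4, 20.9, 17.1 and 16.2 CPM against 4.85, 7.08, 9.29, 8.88 and 7.34 CPM (1.11). These levels are far below those of *mt-Co1*. Whether uncounted reads that match several places had a part in this was not tested. Mitochondrial genes took 4.85 to 5.62% of counts in the Cort libraries and 5.26 to 7.15% in the untreated libraries.

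Whether the response was particular to WT livers was tested against the livers of mice without E47 (E47KO), 4 after the same Cort treatment and 6 untreated. Treatment and its coincident factors were named alike there, but livers that stood apart need not be spread evenly over the genotypes. On 1 scale for both genotypes, *Fkbp5* was at 61.0 CPM in WT Cort replicate 1. It was at 72.6 and 52.9 CPM in E47KO Cort replicates 1 and 2, and at 269.7 to 503.7 CPM in the other Cort livers. Small RNA genes took 0.322% of counts in E47KO untreated replicate 1 and 0.0704 to 0.115% in the other untreated E47KO livers. The part of this in the genotype difference was not tested. The Cort effect here means Cort against untreated livers, with every coincident factor in it. In 1 fit of all 19 livers it was called for 32.9% of genes in WT and 38.4% in E47KO. Of the 97 named genes called in WT, 93 had the same sign in E47KO livers, and 74 of these were also called there. Named genes were in part chosen for large changes without overlap in WT. The share over all genes called in WT was not taken. Among the 4 with the opposite sign were *Cidec* (1.55 in WT, -0.06 in E47KO) and *Hamp* (-0.80 and 0.47). The B cell gene *Cd79a* was also counted there, but in E47KO livers it was at 0.0972 CPM or less after Cort and at 0.0684 CPM or less untreated, near 0 in both groups, and no direction was read from it. The difference of the Cort effect between the genotypes passed for 1 of 14991 genes (0.00667%), *Hsd3b5*, with an effect in E47KO that was 5.34 ± 0.68 (SE) higher on the log2 scale (adjusted p = 0.00387), and 1024 had an unadjusted p under 0.05. DESeq2 called 13 genes for the difference, *Hsd3b5* and *Mup7* (3.02, adjusted p = 0.042) among them. A difference that was not called does not show that a gene responded alike in both genotypes.

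Other livers of the series that saw a glucocorticoid are given side by side only, since agent, dose, time and libraries differ. In 2 WT livers after 3 weeks of dexamethasone (Dex) at 10 µg/ml, also killed after a glucose tolerance test, *Hsd3b5* was at 20.5 and 13.7 CPM and *Fkbp5* at 406.7 and 604 CPM. Other genes did not lie with the Cort livers. *Cyp2a22* was at 4.46 and 1.88 CPM in these 2 livers, against 37.6 to 87.3 CPM after Cort. Genes going either way were not counted. In 3 livers of mice with floxed E47 alleles and no Cre (per the labels Alb+/+ with E47fl/fl or E47fl/+) that had received Dex (1 mg/kg) 1 h earlier, *Hsd3b5* was at 332, 317 and 335 CPM and *Fkbp5* at 116, 172 and 156 CPM.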

How the data were processed

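RNA from whole liver was sequenced from 4 WT mice after Cort and 5 untreated WT mice. The authors deposited raw read counts per gene, unnormalised, made by alignment to mm10 with STAR 2.4.2a as the submitters' processing notes and the methods of the study state. The column without regard to strand was used for every library. Entries that name no gene (unmapped, multimapping, no feature, ambiguous) held 20.8 to 22.9% of a Cort library and 27.7 to 33.3% of an untreated library and were left out. Files of the authors' own comparisons, which hold fold changes and p-values, were not used.

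Counts were filtered with filterByExpr, scaled by TMM and tested with edgeR 4.0.16 (quasi-likelihood F test, R 4.3.3) with Benjamini-Hochberg adjustment over all 14302 genes, and calls were made at an adjusted p under 0.05. CPM values use TMM library sizes. The difference between genotypes was an interaction term in 1 fit of 19 livers. DESeq2 1.42.0 was an alternative. On simulated counts for this comparison over 14302 genes, 8 of 67 genes changed 1.5-fold, 42 of 67 changed 2-fold and 61 of 66 changed 4-fold were called. No other gene was changed in the simulation, whereas 26.7% of genes were called in the data. The adjustment for many tests therefore differed, and these rates need not hold for the data. Named genes were a set marked for their roles in the lists, the 10 largest called changes in each direction with no overlap and a mean of at least 10 CPM (predicted gene models left out), and up to 2 further called members without overlap in each direction of each pathway list. Other list members are named as examples, chosen after their values were seen. The members and lists were chosen with earlier results of these data known. Of 12 hepatocyte markers *Tf* was not found. Promoters came from RefSeq (GRCm38.p6). Alternatives were other size factors, no filter, DESeq2, the strand column with more reads, subsets of the untreated livers, a replicate block, the joint fit and each library left out. Leaving out Cort replicate 1 and untreated replicates 1 and 2 together was chosen after seeing the data. Some genes are not reported here.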

Additional observations from a re-analysis of the deposited data

Results flagged for a closer look

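In 17 of 240 groups of 4 or 5 livers tested over the named genes, 1 liver lay far from the others of its group by Dixon's test, where chance gives about 1 in 20. Untreated replicate 5 was the liver concerned for *Acacb* (47.4 CPM), *Scd1* (1568 CPM), *Cyp4a14* (10.4 CPM), *Cyp4a10* (47.3 CPM) and *Vldlr* (0.416 CPM), below the other untreated livers each time. Cort replicate 1 was low for *Per1* (14.4 CPM, others 61.8 to 70.7) and *Pck1* (1275 CPM, others 2824 to 3275), and high for *Irs2* (7.501 CPM, others 3.50 to 3.93), *Stat5a* (32.5 CPM, others 15.7 to 17.5) and *Srxn1* (139.6 CPM, others 63.2 to 72.1). Cort replicate 4 was high for *Scd1* (9645 CPM) and *Npas2* (0.488 CPM, others 0.263 to 0.283), and low for *Mup1* (1.22 CPM, others 2.28 to 2.47). Cort replicate 2 was low for *Cyp8b1* (289 CPM, others 526 to 568) and Cort replicate 3 for *Dbp* (9.17 CPM, others 22.3 to 25.5). Untreated replicate 1 was high for *Tat* (2711 CPM, others 1316 to 1595) and low for *Id2* (36.1 CPM, others 85.1 to 118).

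The Cort effect on *Hsd3b5* was 5.34 higher on the log2 scale in E47KO than in WT livers in the test of the difference itself (edgeR, adjusted p = 0.00387).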

How the results depend on the processing

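The count of 3822 genes was 3806 with RLE size factors, 3511 without the filter, 4793 with DESeq2, 5283 with the strand column that held more reads and 4585 without the 3 libraries that stood apart. It was 738 when tested against a fold of 1.5, a stricter question, and 2278 (without Cort replicate 4) to 3513 when 1 library was left out. The count of 1436 genes at 2-fold or more became 2648 with the strand column (1979 higher, 669 lower). That column held 50.1% of the stranded counts in the Cort libraries and 96.9 to 97.5% in the untreated libraries. The 2 groups were thus not counted alike in that setting. The cause of the change in the counts was not tested. Of 97 called named genes 68 kept direction and call under all 18 alternatives, and none reversed.

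Deviations of same-numbered livers correlated at 0.228, -0.126, 0.09 and 0.158, within the -0.315 to 0.275 of the other pairs. These few values cannot decide whether the livers were paired, and the labels give only a shared number. With the number as a replicate block 2605 genes passed, 7 of 96 called named genes lost their call, and the genotype difference gave 0 genes (802 at an unadjusted p under 0.05) in place of 1, or 13 with DESeq2.

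Genes that were not called reversed as follows on the log2 scale. With untreated replicates 1 and 2 as the only controls, *Igfbp1* was -0.93, *Cyp8b1* -0.22, *Cpt1a* 0.15, *Saa1* 1.26, *Saa2* 1.16 and *Id2* 0.27. With untreated replicates 3 to 5 only, *Irs2* was 0.43, *Scd1* 0.0512, *Hmgcs1* 0.17 and *Nr1d1* 0.22. Without the 3 libraries that stood apart, *Pck1* was 0.004, *Irs2* 0.0935, *Scd1* 0.13, *Hmgcs1* 0.12 and *Sds* 0.19. With the replicate block *Saa1* was 0.45 and *Saa2* 0.39. Leaving out 1 library gave -0.51 to 0.20 for *Irs2*, -0.29 to 0.83 for *Igfbp1*, -0.38 to 0.10 for *Scd1*, -0.10 to 0.21 for *Tdo2* and -0.63 to 0.12 for *Id2*.

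List medians moved as follows. With untreated replicates 1 and 2 only, lipid droplet genes had a median of 0.39, cholesterol genes -1.52, acute phase genes 0.69 (0.46 with the replicate block), immediate early genes -0.39 and mitochondrial genes 0.51 (0.71 with the strand column). With untreated replicates 3 to 5 only, insulin genes had 0.0541, clock genes 0.15, MHC class II genes -2.157 and immediate early genes 0.92. Without the 3 libraries that stood apart, glucose genes had 0.0911, insulin genes 0.0095, clock genes -0.0112, growth hormone genes -0.37, interferon genes -0.87 and MHC class II genes -2.15. Leaving out 1 library gave 0.0726 to 0.57 for lipid droplet genes and -0.14 to 0.15 for growth hormone genes.

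In simulated counts, with far fewer genes changed than were called in the data, 11.9% of genes changed 1.5-fold were called. That rate need not hold for the data, but a missed call does not show that a gene did not change.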
